A study of Homo sapiens with 8 samples.

Results

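The p53 target genes described here are 34 genes that p53 is known to switch on, together with regulators that feed back on p53. They were read in JVM13, a human line grown from leukemic B cells, after cyclin D1 had been induced. The members were taken by gene symbol from probe sets annotated to 1 gene only. Of several probe sets for a gene, the brightest on average across the 8 arrays was kept. In this way 32 of the 34 were measured, among 18231 genes in all, and the other 2 and the transcript of p53 itself were not analysed here. The arrays fall into 3 groups: 3 of cells induced to make T286A cyclin D1, 3 of cells induced to make wild-type cyclin D1 and 2 of cells with an empty vector, which the titles call control. All 3 groups had 0.1 µg/mL doxycycline, the inducer, in the medium, so the drug is common to them and no untreated array enters. The labels give no induction time and do not say whether replicates were separate cultures or whether a group was 1 transduced population, so the p-values measure the spread between these arrays, which may be technical.

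p53 is a transcription factor that DNA damage, oncogene activity and other stress stabilise. It binds paired copies of a short decamer in DNA and raises genes for cell cycle arrest, DNA repair, apoptosis and metabolism. Among its targets are MDM2, the ubiquitin ligase that marks p53 for degradation, and PPM1D, a phosphatase that switches the damage response off. In lymphoid cells this network is a main barrier to transformation, and it is often lost in aggressive mantle cell lymphoma. Cyclin D1 drives CDK4 and CDK6 to phosphorylate RB, which frees E2F factors. The T286A form lacks the phosphorylation site through which cyclin D1 is exported from the nucleus and degraded, and it stays in the nucleus.

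Values are log2 intensities of the chosen probe set, so a difference of 1 is a doubling, and levels of different genes are not compared. The induced transcript tells construct arrays from empty-vector arrays, but not T286A from wild type. CCND1, cyclin D1 itself, was 11.25, 10.86 and 10.95 in T286A arrays, 10.98, 11.13 and 11.07 in wild-type arrays, and 5.25 and 4.98 in empty-vector arrays. The differences from empty vector were 5.90 ± 0.13 for T286A and 5.95 ± 0.13 for wild type (SE), with adjusted p = 5.54e-07 and 5.22e-07 (limma). T286A and wild-type arrays differed by -0.04 (95% interval -0.31 to 0.22). The empty-vector level is below that of the median gene, 5.94, so no fold is given. CCND1 has 4 probe sets, and the other 3 stayed at 3.85 to 4.69 in all 8 arrays, so that the mean over the 4 differed by 1.44 in T286A and 1.52 in wild type. The 5 B-cell markers measured ran from 7.63 to 13.4, and their summed level was 52.85 to 52.99 in T286A, 52.66 to 53.12 in wild-type and 53.23 to 53.31 in empty-vector arrays. CD22 alone among them was called, 0.40 lower in wild type than in empty vector (difference -0.40, adjusted p = 0.0498, limma). The 18 markers of T, NK, myeloid, epithelial and fibroblast cells lay at 3.95 to 7.88, with ITGAM highest, summed to 87.7 to 88.1, 88.1 to 88.5 and 88.1 to 88.8 in the same order of groups, and 0 were called. Wild-type replicate 2 stood somewhat apart. Its median distance from the gene medians over all 8 arrays was 0.0892, against 0.0631 to 0.0763 for the other arrays. That distance includes differences between groups.

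Promoter sequence was looked at because p53 and E2F act through known motifs. RefSeq windows of GRCh38.p14, from 250 bases before a transcript start to 50 after it, were found for 26 of the 32 members, 41 windows in all. The p53 decamer, whose consensus is its own reverse complement so that both strands are covered, occurred in 5 of the 41 windows (12.2%), those of AEN, DDB2, FAS, PLK2 and SESN1. It occurred in 2329 of all 35116 windows (6.63%). Counted by gene, that is 5 of 26 members (19.2%), against 2202 of 27305 genes with a window (8.06%). Paired decamers at most 13 bases apart occurred in 1 of the 41 windows (2.44%), that of DDB2, and in 10 of all windows (0.0285%). The E2F motif, searched as TTTCGCGC or TTTGGCGC on both strands, occurred in 2 of the 41 windows (4.88%), which overlap and are both of MDM2, and in 403 of all windows (1.15%). By gene the last 2 are 1 of 26 members each (3.85%), against 0.0366% and 1.4% of genes. A match is a run of letters and not a measured site, and a window without one says nothing about binding elsewhere in the gene. The DDB2 window is shown whole because it holds the paired element (capitals, positions 6 to 26 after the start), and the SPATA18 window because SPATA18 was the called member (no match, all lower case). The windows to print were chosen after the values were seen. The 30-base stretches put the decamer, or for MDM2 the E2F motif, in capitals. DDB2 lies at chr11:47214724-47215023 on the + strand, SPATA18 at chr4:52051054-52051353 on the + strand, AEN at chr15:88621296-88621325 on the + strand, FAS at chr10:88991299-88991328 on the + strand, MDM2 at chr12:68807929-68807958 on the + strand, PLK2 at chr5:58460199-58460228 on the - strand and SESN1 at chr6:109009018-109009047 on the - strand.
DDB2: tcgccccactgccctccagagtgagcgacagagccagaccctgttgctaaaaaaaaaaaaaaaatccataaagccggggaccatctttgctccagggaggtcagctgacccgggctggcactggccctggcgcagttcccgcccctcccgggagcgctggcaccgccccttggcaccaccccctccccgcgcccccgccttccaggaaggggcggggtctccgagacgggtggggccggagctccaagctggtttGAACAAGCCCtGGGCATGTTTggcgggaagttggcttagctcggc
SPATA18: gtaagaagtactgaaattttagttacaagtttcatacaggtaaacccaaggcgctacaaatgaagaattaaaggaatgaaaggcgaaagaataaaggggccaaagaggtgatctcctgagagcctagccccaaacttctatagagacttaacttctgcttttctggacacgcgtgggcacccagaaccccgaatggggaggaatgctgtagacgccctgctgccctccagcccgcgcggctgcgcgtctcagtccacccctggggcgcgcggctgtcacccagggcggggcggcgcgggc
AEN: agtcggagccGGGCTTGCCCgggcatgtgg
FAS: cggaactcctGGACAAGCCCtgacaagcca
PLK2: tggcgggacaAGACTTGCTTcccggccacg
SESN1: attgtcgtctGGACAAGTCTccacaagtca
MDM2: ggagtgtcacaGCGCCAAAccttgctggct

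SPATA18 was the single member called, in 2 of the 4 comparisons, and the differences of the other members ran from -0.39 to 0.35. In wild-type against empty-vector arrays 1 of 32 members passed an adjusted p of 0.05 (limma, Benjamini-Hochberg over all genes), against 1.74% of all genes (317 of 18231). In T286A against empty-vector arrays 0 of 32 passed, against 0.532% of all genes (97), and the smallest adjusted p of a member was 0.110. In T286A against wild-type arrays 1 of 32 passed, against 0.987% (180). With both constructs, weighted equally, against empty vector 0 of 32 passed, against 1.4% (255), and the smallest adjusted p was 0.0653. In 23 of 32 members the mean of both constructs was above empty vector. The median difference was 0.08, where the median over all genes was -0.00015.

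**Figure D1:**
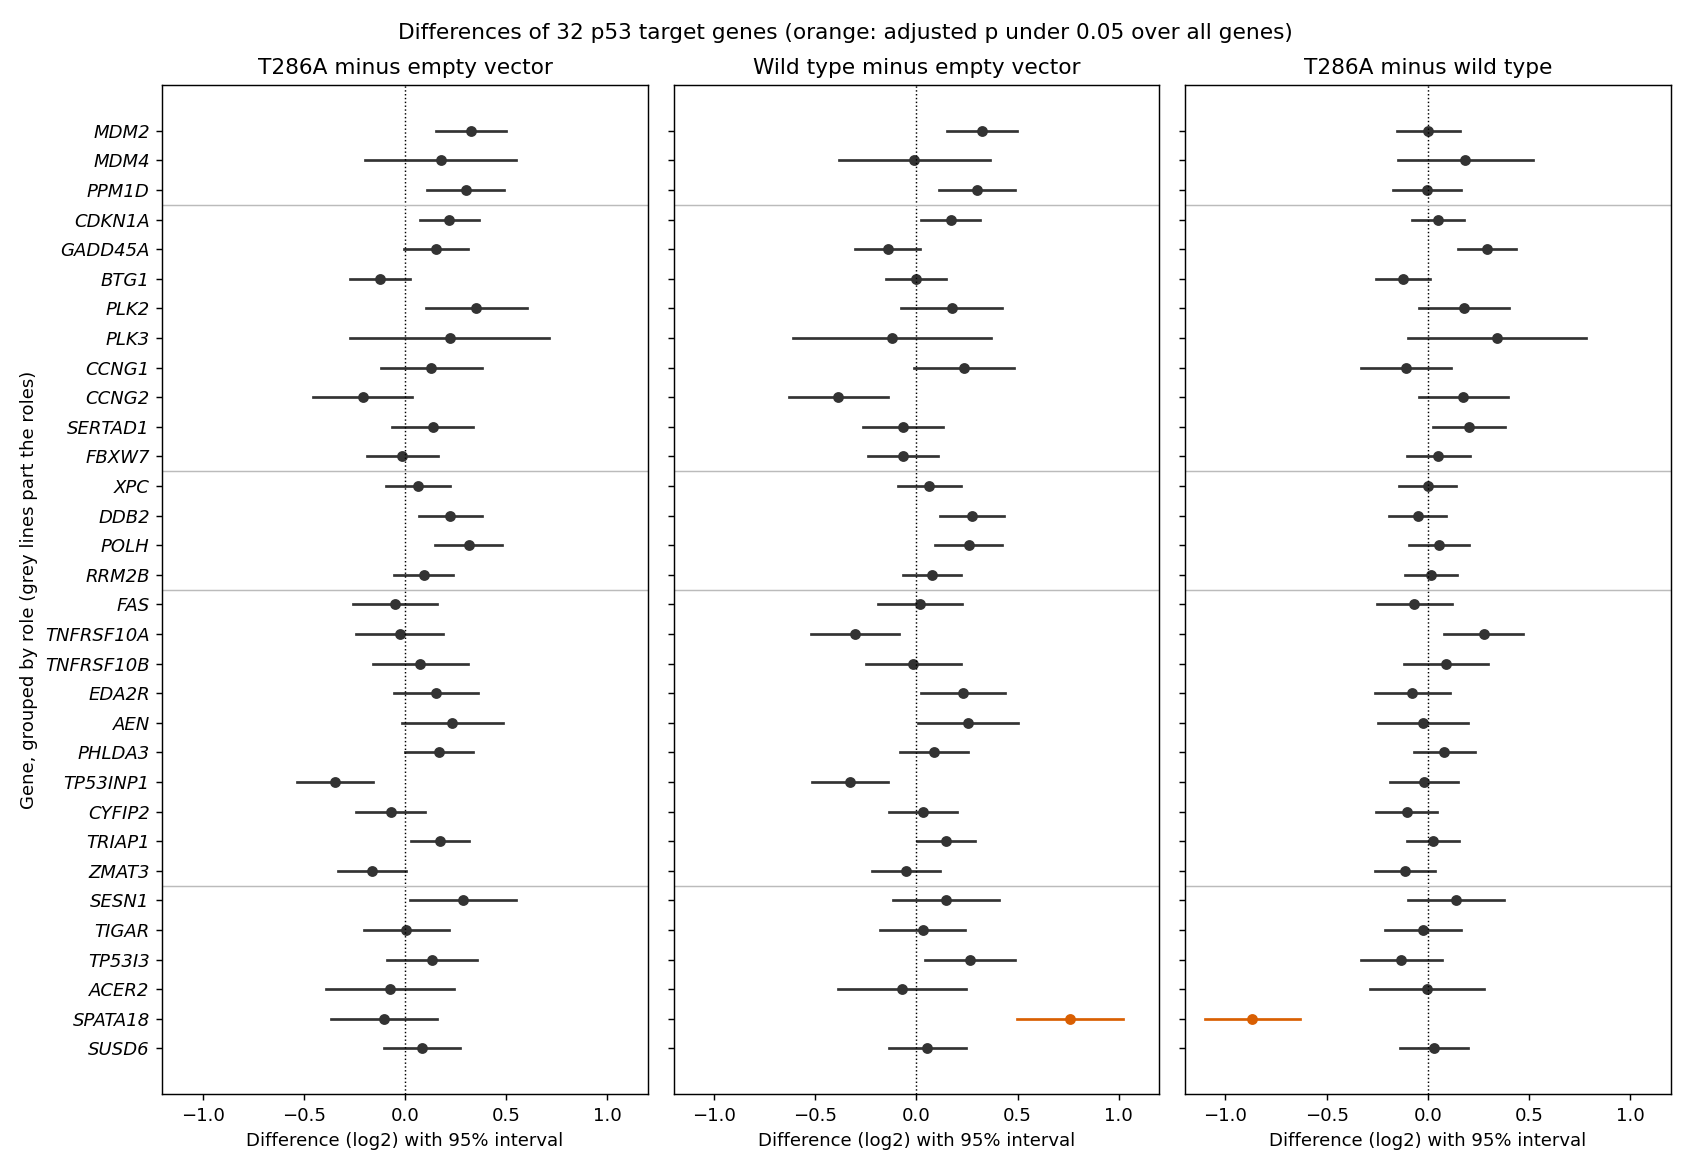
Difference in log2 intensity (point) with the 95% interval of the limma fit (bar) for each of the 32 measured members, in panels for T286A minus empty vector, wild type minus empty vector and T286A minus wild type; genes are grouped by role and called ones are orange. SPATA18 lies at 0.76 for wild type minus empty vector and at -0.87 for T286A minus wild type, and the other members lie between -0.39 and 0.35 in all 3 panels.

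Short of the adjusted threshold, more members lay on the high side than the share over all genes. At an unadjusted p under 0.05 the mean of both constructs was higher in 10 of 32 members (31.25%), against 5.72% of all genes. It was lower in 2 (6.25%), against 6.74%. SPATA18 is among these 10, although T286A alone was at -0.11 from empty vector. T286A alone gave 9 higher (28.1%), against 5.95%, and 1 lower (3.13%), against 6.15%. Wild type alone gave 10 higher (31.25%), against 6.08%, and 3 lower (9.38%), against 7.42%. T286A against wild type gave 3 higher (9.38%), against 7.16%, and 1 lower (3.13%), against 6.46%. The T286A and wild-type comparisons share the same 2 empty-vector arrays, and the members are not independent of each other, so the shares are a description with no test. All 6 construct arrays lay above both empty-vector arrays in 12 members (37.5%), against 6.68% of all genes, and below both in 2 (6.25%), against 6.88%. Members are brighter than most genes, since 30 of the 32 have a mean at or above the median gene. Among those 30, 10 were higher (33.3%) and 2 lower (6.67%) in the mean of both constructs at an unadjusted p under 0.05. The shares were 8.03% and 9.04% of the 9116 genes in that upper range. With only those bright genes in the fit 6 of 30 members were called for the mean of both constructs, against 6.85% of all genes fitted. The count of calls therefore depends on the filter.

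**Figure D2:**
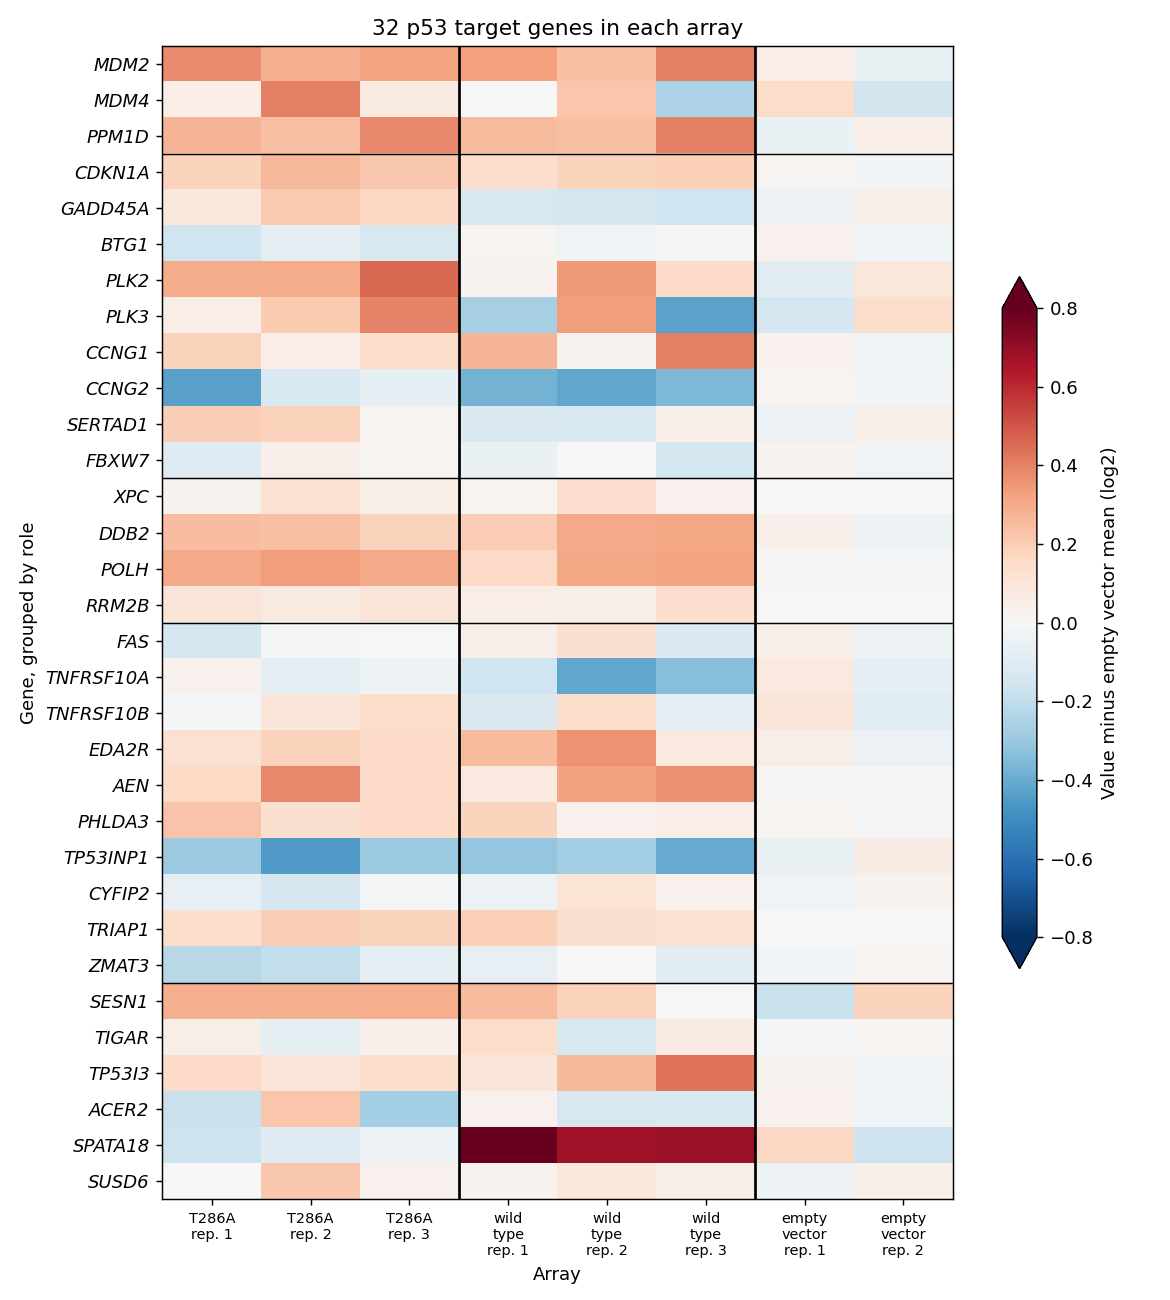
Log2 intensity minus the empty-vector mean (colour) for the 32 measured members in rows, grouped by role, and the 8 arrays in columns, T286A left, wild type in the middle and empty vector right. MDM2, PPM1D, POLH, DDB2 and CDKN1A are above 0 in all 6 construct arrays, TP53INP1 and CCNG2 are below 0 in all 6, and SPATA18 is strongly above 0 in the 3 wild-type arrays alone.

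SPATA18 is the member that sets the constructs apart. It encodes a p53-inducible protein of mitochondrial quality control, also called Mieap, and lies at chr4:52051304-52097299 (GRCh38.p14). It was 5.96, 6.02 and 6.08 in T286A arrays, 7.04, 6.81 and 6.82 in wild-type arrays, and 6.29 and 5.96 in empty-vector arrays. The 3 wild-type arrays lie above all 5 others, and the T286A range overlaps that of empty vector. The empty-vector mean, 6.13, is only a little above the level of the median gene, 5.94. In bulk RNA a change in the share of expressing cells and a change in RNA per cell cannot be told apart. SPATA18 rose in wild-type cells relative to empty vector, by 0.76 ± 0.11 (SE, 95% interval 0.50 to 1.02), or 1.69-fold, with adjusted p = 0.0183 (limma). In T286A cells it was lower than in wild-type cells, by -0.87 ± 0.10 (95% interval -1.10 to -0.63), a ratio of 0.548, with adjusted p = 0.00839 (limma). T286A differed from empty vector by -0.11 ± 0.11 (adjusted p = 0.800, limma). The call against empty vector was lost without wild-type replicate 1 (0.68, adjusted p = 0.0546, limma). It was also lost in limma fits of only the groups compared (adjusted p = 0.0860) or with the replicate block (adjusted p = 0.0651). Without empty-vector replicate 2, which leaves 1 array in that group, the difference was 0.60. The call against wild type was kept in all 17 alternatives, but these are not all separate checks. For that comparison, leaving out either empty-vector array gives the same fit as only the groups compared. A fit over all named probe sets, among the 17, was added after the values were seen.

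SPATA18 has 3 probe sets, and they differ in how far they show this. The second was 5.47, 5.65 and 5.70 in T286A arrays, 6.11, 6.26 and 6.13 in wild-type arrays, and 5.45 and 5.54 in empty-vector arrays. In a fit over all named probe sets it gave 0.67 for wild type against empty vector (adjusted p = 0.0205, limma) and -0.56 for T286A against wild type (adjusted p = 0.0307, limma). Its 3 wild-type arrays are again above the rest. The dimmest probe set, at 4.82 to 5.15, gave 0.10 and -0.12 for the same comparisons and was not called. In that fit these 2 probe sets of SPATA18 were the only ones called among the 94 probe sets of the members, in either comparison. The share called among all 45220 named probe sets is not given here, so the 2 of 94 cannot be set against it.

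**Figure D3:**
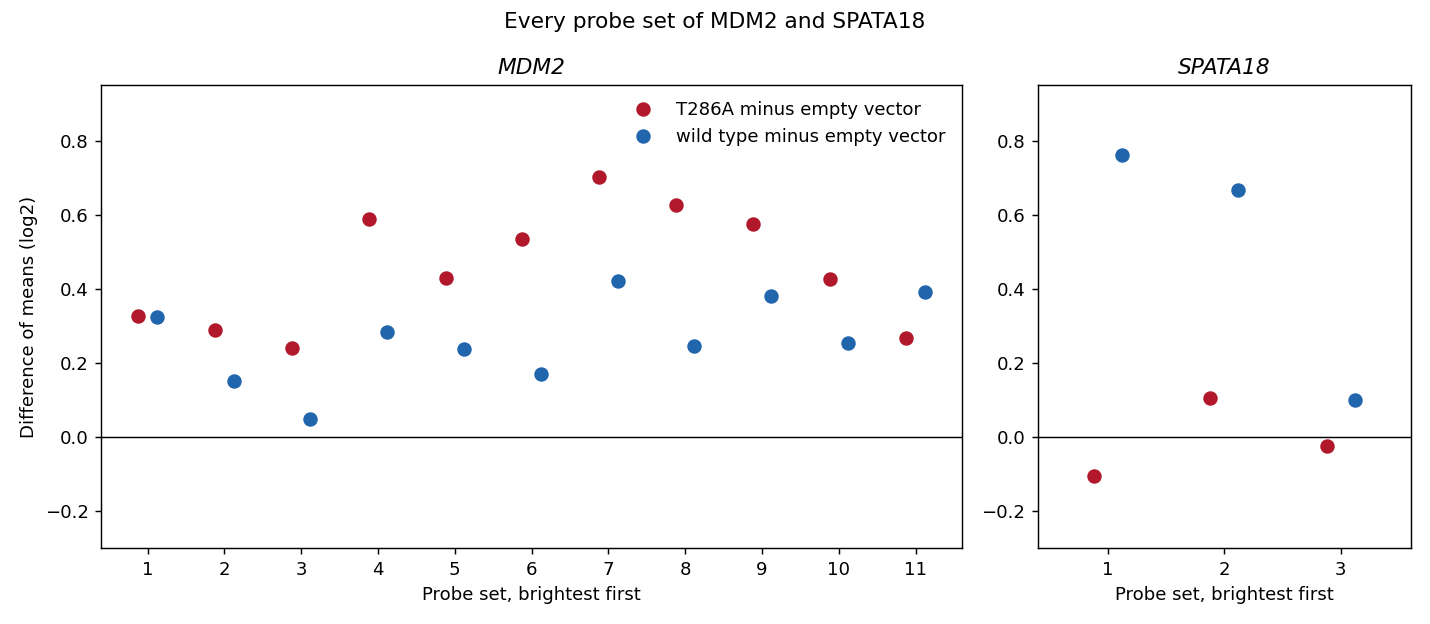
Difference in mean log2 intensity from empty vector (y axis) for each of the 11 probe sets of MDM2 and the 3 of SPATA18, brightest first (x axis), with T286A and wild type as separate points. All 11 MDM2 probe sets lie above 0 for both constructs, and the 2 brighter SPATA18 probe sets lie at 0.76 and 0.67 for wild type.

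The 3 regulators of p53 in the set gave 2 that were higher in each construct at an unadjusted p under 0.05, and 0 calls. Over all genes 5.95% were higher in T286A and 6.08% in wild type at that p. MDM2 was 9.87, 9.78 and 9.81 in T286A arrays, 9.82, 9.73 and 9.89 in wild-type arrays, and 9.54 and 9.44 in empty-vector arrays. All 6 construct arrays lie above both empty-vector arrays, and the 2 construct groups overlap. The difference from empty vector was 0.33 ± 0.075 for T286A (adjusted p = 0.111, limma), 0.32 ± 0.075 for wild type (adjusted p = 0.0874) and 0.33 ± 0.067 for both together (adjusted p = 0.0653), none of them called. T286A and wild type differed by 0.0034 (95% interval -0.15 to 0.16). MDM2 has 11 probe sets, and all 11 differed upward from empty vector, by 0.24 to 0.70 in T286A (median 0.43) and by 0.049 to 0.42 in wild type (median 0.25). In 10 of the 11 the T286A mean was above the wild-type mean, although the chosen one shows no such gap. Several of the 11 can also bind other transcripts, by the suffix of their names. All of them read the same 8 arrays, so their agreement is not independent.

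PPM1D, the phosphatase named above, was 9.20, 9.17 and 9.31 in T286A arrays, 9.18, 9.17 and 9.33 in wild-type arrays, and 8.87 and 8.98 in empty-vector arrays. Again the 6 construct arrays are all above the 2 empty-vector arrays and the constructs overlap. The differences were 0.30 ± 0.082 for T286A (adjusted p = 0.169, limma) and 0.30 ± 0.082 for wild type (adjusted p = 0.139), not called, and its 4 probe sets were all on the high side in both. MDM4, the MDM2 relative that blocks p53's activation domain, ran from 7.88 to 8.53 with overlapping groups, and differed by 0.18 for T286A and -0.01 for wild type.

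**Figure D4:**
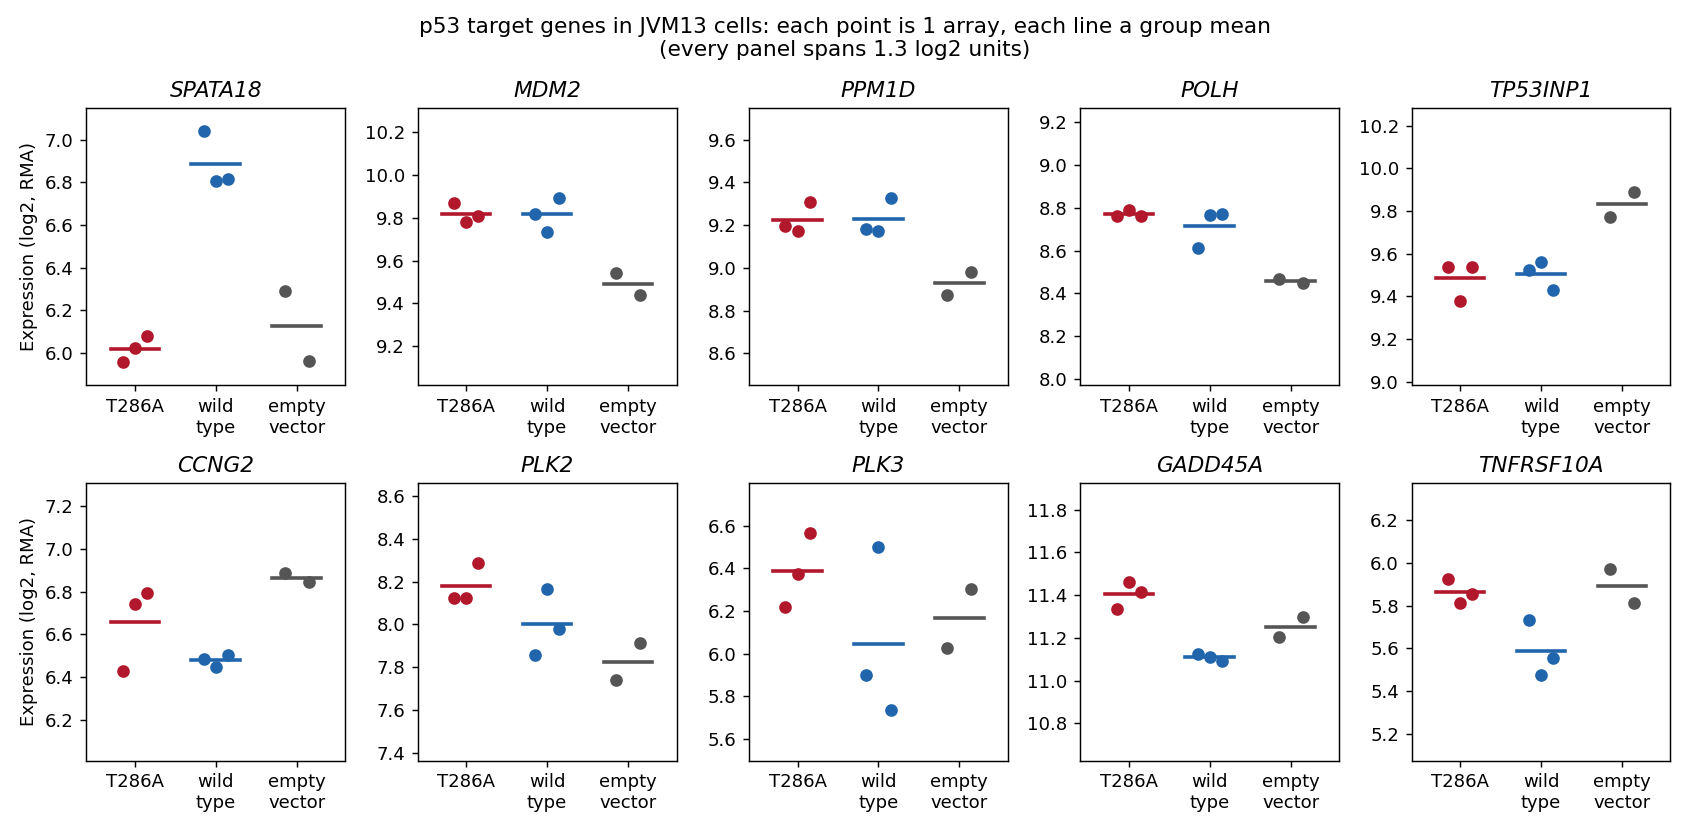
Log2 intensity of the members given with every array: each point is an array, T286A left, wild type in the middle and empty vector right in each panel, and the short line is the group mean. MDM2, PPM1D and POLH separate both constructs from empty vector, GADD45A separates all 3 groups, and SPATA18 separates wild type from the other two.

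In all 4 genes of DNA repair and nucleotide supply the 6 construct arrays lay above both empty-vector arrays, and 0 were called. Over all genes 6.68% had such a separation. POLH, the polymerase that copies past ultraviolet lesions, was 8.76, 8.79 and 8.76 in T286A arrays, 8.61, 8.76 and 8.77 in wild-type arrays, and 8.47 and 8.45 in empty-vector arrays. Its differences were 0.31 ± 0.072 (adjusted p = 0.110, limma) and 0.26 ± 0.072 (adjusted p = 0.147), not called. Its chosen probe set can also bind other transcripts, by the suffix of its name, and the 4 POLH probe sets ranged from 0.21 to 0.38 in T286A and from 0.18 to 0.40 in wild type. DDB2, which recognises ultraviolet damage for nucleotide excision repair, carries the paired decamer shown above. It was 10.97, 10.95 and 10.90 in T286A arrays, 10.92, 11.02 and 11.03 in wild-type arrays, and 10.76 and 10.68 in empty-vector arrays, every construct array above both of the others. The differences were 0.22 (adjusted p = 0.222, limma) and 0.27 (adjusted p = 0.109). XPC, the partner sensor of helix distortion, differed by 0.064 in each construct. RRM2B, the p53-induced ribonucleotide reductase subunit, differed by 0.092 for T286A and 0.077 for wild type, and 3 of its 9 probe sets were lower in wild type.

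Among the 9 genes of cell cycle and growth arrest, 0 were called. The median difference from empty vector was 0.14 for T286A and -0.07 for wild type, the second of which came to 0.0017 with arrays centred on their medians. In T286A minus wild type 2 of the 9 (22.2%) were higher at an unadjusted p under 0.05, against 7.16% of all genes. CDKN1A, the CDK inhibitor p21, given with its arrays because of that role and after its values were seen, was 12.39, 12.47 and 12.43 in T286A arrays, 12.35, 12.39 and 12.40 in wild-type arrays, and 12.23 and 12.19 in empty-vector arrays. All 6 construct arrays lie above the 2 empty-vector arrays. The differences were 0.22 (adjusted p = 0.191, limma) and 0.17 (adjusted p = 0.287), not called.

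GADD45A, a stress sensor that acts at the G2 checkpoint and in repair, was 11.33, 11.46 and 11.42 in T286A arrays, 11.12, 11.11 and 11.09 in wild-type arrays, and 11.20 and 11.30 in empty-vector arrays. The 3 groups do not overlap, with T286A highest, empty vector between and wild type lowest. T286A minus wild type was 0.29 ± 0.062 (adjusted p = 0.0880, limma), and the differences from empty vector were 0.15 and -0.14 (adjusted p = 0.435 each), none called. SERTAD1, a CDK4-binding protein, had T286A minus wild type at 0.20 (adjusted p = 0.314, limma).

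PLK2, a polo-like kinase induced by p53 at the checkpoint, was 8.13, 8.12 and 8.29 in T286A arrays, 7.86, 8.17 and 7.98 in wild-type arrays, and 7.74 and 7.91 in empty-vector arrays. T286A lies above empty vector in every array, and wild type overlaps both. The differences were 0.35 ± 0.11 for T286A (adjusted p = 0.224, limma) and 0.17 for wild type (adjusted p = 0.553). Of the 4 PLK2 probe sets 3 were higher in T286A and 1 lower (-0.062), and all 4 were higher in wild type. PLK3, its stress-responsive relative, was 6.22, 6.37 and 6.56 in T286A arrays, 5.90, 6.50 and 5.74 in wild-type arrays, and 6.03 and 6.30 in empty-vector arrays. Wild-type replicate 2 is well above its group, the groups overlap, and T286A minus wild type was 0.34 ± 0.19 (adjusted p = 0.480, limma).

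CCNG2, a cyclin linked to growth arrest, was 6.43, 6.74 and 6.79 in T286A arrays, 6.49, 6.45 and 6.50 in wild-type arrays, and 6.89 and 6.84 in empty-vector arrays. Both constructs lie below empty vector in every array, and they overlap. The differences were -0.21 (adjusted p = 0.501, limma) and -0.39 ± 0.11 (adjusted p = 0.145), not called, and the 5 probe sets of CCNG2 disagree in direction. CCNG1, its relative and a direct p53 target, went the other way, by 0.13 for T286A and 0.23 for wild type. BTG1, an antiproliferative cofactor, was -0.12 and -0.00016 from empty vector. FBXW7, the ubiquitin ligase subunit that recognises cyclin E and MYC, was -0.013 and -0.07.

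The 10 genes of death receptors and apoptosis were mixed, with a median difference of 0.024 for T286A, -0.02 when arrays were centred on housekeeping genes, and of 0.025 for wild type, and 0 calls. TP53INP1, which promotes p53-dependent death and autophagy, was 9.54, 9.38 and 9.54 in T286A arrays, 9.52, 9.56 and 9.43 in wild-type arrays, and 9.77 and 9.89 in empty-vector arrays. All 6 construct arrays lie below both empty-vector arrays, opposite to MDM2. The differences were -0.35 ± 0.083 for T286A (adjusted p = 0.122, limma), -0.33 ± 0.083 for wild type (adjusted p = 0.108) and -0.34 ± 0.074 for both (adjusted p = 0.0772), not called. Its other probe set, dim at 4.90 to 5.12, gave 0.069 and 0.047.

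TNFRSF10A, the TRAIL receptor DR4, was 5.93, 5.81 and 5.85 in T286A arrays, 5.73, 5.48 and 5.55 in wild-type arrays, and 5.97 and 5.81 in empty-vector arrays. Wild type lies below both other groups in every array. The difference from empty vector was -0.30 ± 0.095 for wild type (adjusted p = 0.197, limma) and -0.03 for T286A, and T286A minus wild type was 0.28 ± 0.085 (adjusted p = 0.214), not called. Its relative TNFRSF10B, the receptor DR5, differed by 0.075 and -0.015, and FAS, the receptor of FAS ligand, by -0.05 and 0.018, in T286A and wild type.

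Of the other apoptosis genes, AEN, a nuclease induced by p53, was 9.34, 9.57 and 9.34 in T286A arrays, 9.26, 9.50 and 9.55 in wild-type arrays, and 9.19 and 9.17 in empty-vector arrays. Every construct array is above both empty-vector arrays, with differences of 0.23 and 0.25 (adjusted p = 0.451 and 0.358, limma). TRIAP1, an inhibitor of apoptosis, was 11.79, 11.84 and 11.82 in T286A arrays, 11.84, 11.77 and 11.76 in wild-type arrays, and 11.64 and 11.65 in empty-vector arrays, differing by 0.17 and 0.15. EDA2R, a death-domain receptor for ectodysplasin, differed by 0.15 and 0.23, and PHLDA3, an inhibitor of AKT, by 0.17 and 0.09. The other EDA2R probe set, dim at 4.64 to 4.93, gave -0.082 and -0.077. CYFIP2 and ZMAT3, an RNA-binding zinc finger protein, were at -0.07 and -0.16 for T286A and at 0.032 and -0.05 for wild type.

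Beside SPATA18, the genes of redox control, mitochondria and metabolism held 0 calls among the 5 others. SESN1, a sestrin that restrains mTORC1, was 7.71, 7.71 and 7.72 in T286A arrays, 7.68, 7.61 and 7.42 in wild-type arrays, and 7.25 and 7.60 in empty-vector arrays. The empty-vector arrays of this probe set are wide apart, and the differences of 0.29 for T286A (adjusted p = 0.366, limma) and 0.15 for wild type were not called. The other SESN1 probe set was 7.36, 7.09 and 7.33 in T286A arrays, 7.26, 6.84 and 7.16 in wild-type arrays, and 6.73 and 6.74 in empty-vector arrays. In the fit over all named probe sets its differences were 0.52 and 0.35 (adjusted p = 0.184 and 0.357, limma), not called. TP53I3, a quinone oxidoreductase, was 8.93, 8.88 and 8.92 in T286A arrays, 8.88, 9.04 and 9.21 in wild-type arrays, and 8.80 and 8.75 in empty-vector arrays. All 6 construct arrays are above the others, with differences of 0.13 and 0.26 (adjusted p = 0.669 and 0.278, limma). TIGAR, a phosphatase that slows glycolysis, differed by 0.0052 and 0.030, SUSD6 by 0.083 and 0.053, and ACER2, a ceramidase dim at 4.04 to 4.53, by -0.08 and -0.07.

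Genes upstream of p53 or bound to it were followed in a list of 29, of which 27 were measured. 1 of 27 was called in wild type against empty vector (1.74% of all genes), 0 in T286A against empty vector (0.532%), 0 in T286A against wild type (0.987%) and 1 in both constructs against empty vector (1.4%). Before adjustment, p was under 0.05 in wild type for 3 higher (11.1%, against 6.08% of all genes) and 1 lower (3.70%, against 7.42%). T286A had 5 higher (18.5%, against 5.95%) and 1 lower (3.70%, against 6.15%). T286A against wild type had 2 higher (7.41%, against 7.16%) and 0 lower (against 6.46%). Both constructs together had 3 higher (11.1%, against 5.72%) and 1 lower (3.70%, against 6.74%). The medians were 0.043, 0.083, 0.037 and 0.071. The called gene, CHEK2, the checkpoint kinase that phosphorylates p53 after double-strand breaks, was 7.74, 7.70 and 7.77 in T286A arrays, 7.78, 7.85 and 7.87 in wild-type arrays, and 7.46 and 7.31 in empty-vector arrays. Every construct array is above both empty-vector arrays. CHEK2 rose by 0.45 ± 0.071 in wild type (adjusted p = 0.0230, limma) and by 0.40 ± 0.064 in both constructs (adjusted p = 0.0284), while T286A alone, at 0.35, was not called (adjusted p = 0.0814). T286A minus wild type was -0.10 (adjusted p = 0.537, limma). Its chosen probe set can bind other transcripts, by the suffix of its name, and its other 2 probe sets gave 0.19 and -0.07 in wild type. The mean over the 3 was 0.19 in wild type (adjusted p = 0.225, limma) and 0.18 in both constructs (adjusted p = 0.211), so neither call was kept. CHEK2 has near-identical copies in the genome, so its level is uncertain, and the wild-type call was lost in 10 of 16 alternatives. These included leaving out either empty-vector array (adjusted p = 0.0919 and 0.202) or any of the wild-type arrays (0.0546 to 0.0668, limma), and the call in both constructs was lost in 9 of 15.

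Further reported targets of p53 made up a list of 70, of which 68 were measured. In wild type against empty vector 3 of 68 were called lower and 0 higher, where 1.74% of all genes were called. In T286A against empty vector 0 were called (0.532% of all genes), in T286A against wild type 2 were called higher (0.987%), and in both constructs against empty vector 2 were called lower (1.4%). Before adjustment, p was under 0.05 in wild type for 9 higher (13.2%, against 6.08% of all genes) and 8 lower (11.8%, against 7.42%). T286A had 14 higher (20.6%, against 5.95%) and 6 lower (8.82%, against 6.15%). Both constructs together had 12 higher (17.6%, against 5.72%) and 4 lower (5.88%, against 6.74%). In T286A against wild type 16 were higher (23.5%), against 7.16% of all genes, and 2 lower (2.94%), against 6.46%. The medians were 0.0049 in wild type, 0.046 in T286A, 0.034 in both constructs and 0.036 in T286A against wild type. DDIT4, a stress-induced inhibitor of mTORC1, was 10.81, 10.86 and 10.91 in T286A arrays, 10.46, 10.37 and 10.47 in wild-type arrays, and 10.98 and 11.02 in empty-vector arrays. The 3 groups do not overlap. DDIT4 fell in wild type relative to empty vector (-0.57 ± 0.069, adjusted p = 0.00950, limma) and was higher in T286A than in wild type (0.42 ± 0.062, adjusted p = 0.0198). It was also lower in both constructs together (-0.35, adjusted p = 0.0376, limma), while T286A alone, at -0.14, was not called (adjusted p = 0.479). The call between the constructs was lost without any 1 of the 6 construct arrays (adjusted p = 0.0574 to 0.0923, limma), and that of both constructs in 9 of 15 alternatives.

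PERP, a membrane protein of desmosomes and p53-dependent apoptosis, was 8.13, 8.07 and 8.21 in T286A arrays, 7.65, 7.51 and 7.70 in wild-type arrays, and 8.23 and 8.10 in empty-vector arrays. Wild type lies below both other groups, which overlap. PERP fell in wild type relative to empty vector (-0.55 ± 0.085, adjusted p = 0.0213, limma) and was higher in T286A than in wild type (0.52 ± 0.076, adjusted p = 0.0208). The call between the constructs was lost without any 1 of the construct arrays other than wild-type replicate 3 (adjusted p = 0.0547 to 0.0900, limma). Its chosen probe set can also bind other transcripts, a second gave -0.44 and 0.43 for these comparisons, and the dimmest, at 4.65 to 4.78, gave -0.02 and 0.015. The mean over the 3 was -0.34 (adjusted p = 0.0326, limma) and 0.32 (adjusted p = 0.0367). SESN3, another sestrin, was 5.60, 5.53 and 5.51 in T286A arrays, 5.32, 4.93 and 5.43 in wild-type arrays, and 6.08 and 5.98 in empty-vector arrays. It fell in wild type (-0.80 ± 0.13, adjusted p = 0.0273, limma) and in both constructs together (-0.65 ± 0.12, adjusted p = 0.0470), and T286A alone was at -0.49 (adjusted p = 0.172). All construct arrays of SESN3 lie below the level of the median gene, 5.94. Its other probe set, at 4.76 to 5.36, was not called in the fit over all named probe sets. There it gave -0.42 in wild type (adjusted p = 0.171, limma) and -0.39 in both constructs (adjusted p = 0.159). Leaving out either empty-vector array ended the wild-type calls of DDIT4, PERP and SESN3, with adjusted p of 0.0835 and 0.109, 0.162 and 0.122, and 0.185 and 0.164 (limma). Without wild-type replicate 1 the calls of PERP and SESN3 were lost too (adjusted p = 0.0616 and 0.0642, limma), and the SESN3 call in both constructs was lost in 7 of 14 alternatives.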

How the data were processed

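Total RNA of JVM13 cells was hybridised to 8 arrays. The deposited table holds log2 intensities per probe set; per the submitters' processing notes the authors used RMA in R 3.5.0, which corrects background, normalizes and summarises probes. RMA equalises arrays, so a shift common to all genes cannot be seen, and low differences are compressed. The number of arrays limits precision.

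Of 48864 probe sets, 10 controls were left out. The platform annotation named 45220 with 1 gene, 1325 with several and 2309 with none; the last 2 kinds were not used. Each of the 18231 genes was represented by its brightest probe set on average. Group means over all 8 arrays were fitted with limma 3.58.1 in R 4.3.3 (lmFit, eBayes, 5 residual degrees of freedom), the 4 comparisons as contrasts, adjusted by Benjamini-Hochberg over all genes at 0.05. The script was tested on simulated data. No 2 arrays held identical values.

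The members, the 2 further lists and the tests were chosen with earlier results of these data known. Values in every array were to be given for members called in any comparison and the 4 with the largest difference in each, 10 members; others with array values (DDB2, CDKN1A, AEN, TRIAP1, SESN1, TP53I3) were added after their values were seen, and at most 4 called genes were named in each further list. Alternatives changed the scaling, dim filter, probe set rule, array weights, variance prior, groups fitted, replicate block and single arrays.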

Additional observations from a re-analysis of the deposited data

Results flagged for a closer look

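In 4 genes the constructs stood apart from each other, 3 by a call of T286A minus wild type in the limma fit and GADD45A by its position relative to empty vector alone. SPATA18 gave -0.87 (adjusted p = 0.00839), with T286A on average 0.11 below (difference -0.11) and wild type 0.76 above empty vector, and every array of the constructs fell on opposite sides of the empty-vector mean. GADD45A gave 0.29 with the arrays likewise on opposite sides in all 6, at 0.15 for T286A and -0.14 for wild type, but the difference was not called (adjusted p = 0.0880, limma). PERP gave 0.52 (adjusted p = 0.0208, limma) and DDIT4 gave 0.42 (adjusted p = 0.0198, limma), in both of which wild type was the lower construct.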

How the results depend on the processing

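No called difference of a member, CCND1, CHEK2, DDIT4, PERP or SESN3 changed sign under any alternative, and CCND1 was called in all. Of the 32 members, uncalled ones changed sign under some alternative in 11 (wild type against empty vector), 7 (T286A against empty vector), 14 (T286A against wild type) and 8 (both constructs), all with a difference of at most 0.146 in size. The number of members called moved with scaling, filter, probe set rule and variance prior. In wild type against empty vector it was 1 as reported, 2 with arrays centred on their medians, 6 with dim genes left out and 6 with an intensity trend and robust prior. It was 0 with only the groups compared and 0 with the replicate block, where 68 and 71 genes were called in all, against 317 as reported. Leaving out 1 construct array gave 0 to 1, with 0 without wild-type replicate 1 (153 genes called in all). In T286A against empty vector it was 0 as reported, 4 with dim genes left out, 7 with the trend and robust prior, and 0 without any 1 construct array. Over all genes, 3 were called without any 1 T286A array and 26 to 87 without 1 wild-type array, against 97 as reported. In those fits 0 of 32 members is therefore near the share over all genes. In T286A against wild type it was 1, and 2 each with dim genes left out and with the trend and robust prior, where GADD45A joined SPATA18. Leaving out 1 construct array gave 1, with 70 to 124 genes called in all, against 180 as reported. In both constructs it was 0, then 1 with median centring (MDM2), 6 with dim genes left out, 2 with the mean over all probe sets (POLH and PPM1D), 2 with array weights (MDM2 and TP53INP1) and 7 with the trend and robust prior (CDKN1A, DDB2, MDM2, POLH, PPM1D, TP53INP1 and TRIAP1). Leaving out any 1 construct array gave 0 there, and the share over all genes in those fits is not given here. Over all genes the robust fit called 4.05% and the bright-gene fit 6.85% in both constructs, against 21.9% and 20% of members. In wild type against empty vector these fits called 4.10% and 6.90% of genes, against 18.75% and 20% of members. In T286A against empty vector they called 3.43% and 5.78%, against 21.9% and 13.3%. In T286A against wild type they called 3.30% and 4.18%, against 6.25% and 6.67%. Median centring called 341 genes in wild type. In both constructs it called 260, the mean over all probe sets 353 and array weights 436. Across alternatives the adjusted p in both constructs ran from 0.00385 to 0.446 for MDM2 and from 0.00194 to 0.624 for CDKN1A (limma); the causes were not tested.

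SPATA18 in wild type against empty vector ran from 0.51 to 0.83, and from 0.60 to 0.92 without single arrays, with adjusted p from 0.00417 to 0.145 (limma); it was lost in 4 of 17 alternatives. T286A minus wild type ran from -0.93 to -0.52 and was called in all 17. For T286A minus wild type, leaving out either empty-vector array is the same fit as only the groups compared, so the alternatives are not all separate. The median of the members in T286A minus wild type, 0.0096, became -0.06 with median centring and -0.03 with housekeeping genes. Calls of PERP in T286A minus wild type were lost in 5 of 16 alternatives, and of DDIT4 in 7 of 16.

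With 2 to 3 arrays a group, whether the replicate numbers pair the arrays cannot be told. Correlations of same-numbered deviations were 0.041, 0.119 and 0.0034 between T286A and wild type. They ran from -0.0909 to -0.0544 between the constructs and empty vector. Of 3 T286A arrays, 1 correlated best with the wild-type array of its own number. With the replicate block 0, 0, 1 and 0 members were called in wild type and T286A against empty vector, T286A against wild type and both constructs, and SPATA18 in wild type was 0.76 (adjusted p = 0.0651, limma). Over all genes that fit called 71, 3 and 86 in the first 3 of these comparisons. With 2 empty-vector arrays, every comparison with them rests on a small spread estimate.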
